A study of Mus musculus with 18 samples.

Results

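The immediate early genes described here are 10 genes, Egr1, Egr2, Fos, Fosb, Jun, Junb, Atf3, Ier2, Dusp1 and Zfp36, taken by gene symbol from the 55416 genes counted, and all 10 were among the 17040 genes kept after a filter on low counts. They were followed in 18 RNA-seq libraries of monocytes sorted from mouse spleens, labelled day 3, with 3 libraries in each of 6 groups: C57BL/6 wild type (WT), Dectin-1-/- (Dectin-1 knockout) and FcgRIIb-/- (FcgRIIb knockout) animals, each given PBS (phosphate-buffered saline) or IVIg (intravenous immunoglobulin, pooled immunoglobulin G) in vivo. The design text states that the mice were independent, while the titles carry codes of unstated meaning that some pairs of libraries share, so independence rests on the design text. Dectin-1, encoded by Clec7a, is a receptor for fungal beta-glucan, and Fcgr2b encodes FcgRIIb, an inhibitory receptor for immunoglobulin G. Both knockouts are labelled by the absent receptor, with no cell type or promoter named, and the labels state no age for the mice. Egr1 drew attention to these genes because its IVIg against PBS difference pointed in opposite directions in WT and in Dectin-1 knockout monocytes, so those differences chose it and are given for it as a description, with no test. The question followed here is whether the other 9 genes moved with Egr1.

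Immediate early genes are transcribed within minutes of a stimulus from transcription factors already present in the cell, without new protein synthesis. Receptor signals reach them through MAP kinases, serum response factor with its ternary complex partners, CREB and NF-kB. Their products are short-lived transcription factors (the Egr, Fos and Jun families, Atf3, Ier2) and feedback inhibitors (Dusp1, a phosphatase that switches off MAP kinases, and Zfp36, which marks cytokine messenger RNAs for decay). In monocytes and macrophages they are known to respond to microbial and Fc receptor stimuli, and also to the handling and sorting of cells.

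Total counts lay between 16996494 and 48958909 in 17 libraries, whereas FcgRIIb knockout PBS replicate 2 held 719494. A floor of 3 counts is worth 4.24 CPM in this shallow library and 0.0615 to 0.186 CPM elsewhere, where CPM is the count divided by the TMM-scaled library size per 1e6. Egr2 and Fosb had 0 counts there, which allows a level of up to that floor. Of all 153 pairs of libraries, the highest Spearman correlation (0.988) joined WT IVIg replicate 1 to WT PBS replicate 3, which carry different treatment labels. Some of the larger shifts in values of the 10 genes without these libraries are given beside the results. Clec7a was 1.89 ± 1.33 CPM (SD, n = 6) in Dectin-1 knockout libraries and 671 ± 174 CPM (SD, n = 12) in the others. Fcgr2b messenger RNA was 182 ± 50.4 CPM (SD, n = 6) in FcgRIIb knockout libraries and 248 ± 38.2 CPM (SD, n = 12) in the others, which does not by itself separate the genotypes, and the labels do not say whether the counted exons lie in the deleted part. All 9 monocyte markers examined, among them Csf1r, Itgam and Cx3cr1, were detected in each library.

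The levels of the 10 genes spanned a wide range. Over the 17 deeper libraries, and per kilobase of exon so that genes can be compared, Junb was the most abundant with a median of 90.9 CPM per kilobase. Junb (ENSMUSG00000052837, chromosome 8, 85701113 to 85705347, GRCm39) encodes an AP-1 subunit of the Jun family. Ier2 (ENSMUSG00000053560, chromosome 8, 85387960 to 85389483), a nuclear immediate early protein, followed at 85.7 CPM per kilobase. Zfp36 (ENSMUSG00000044786, chromosome 7, 28076209 to 28079678), which encodes tristetraprolin, reached 45.8 CPM per kilobase. These 3 genes stood at or above the level of 92.6% of the genes tested.

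Atf3 (ENSMUSG00000026628, chromosome 1, 190902493 to 190950236), a stress-induced factor that restrains inflammatory genes, had a median of 22.4 CPM per kilobase. Fos (ENSMUSG00000021250, chromosome 12, 85520664 to 85524047), the classical partner of Jun in AP-1, had 15.3 CPM per kilobase, and Jun itself (ENSMUSG00000052684, chromosome 4, 94937271 to 94940459) had 7.31 CPM per kilobase. Dusp1 (ENSMUSG00000024190, chromosome 17, 26724564 to 26781102) had 5.06 CPM per kilobase. These 4 genes were of middle abundance.

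The 3 least abundant were Egr2 (ENSMUSG00000037868, chromosome 10, 67371305 to 67378018) at 0.483, Egr1 (ENSMUSG00000038418, chromosome 18, 34992876 to 34998037) at 0.266 and Fosb (ENSMUSG00000003545, chromosome 7, 19036621 to 19043976) at 0.164 CPM per kilobase. Egr1 and Egr2 encode related zinc finger factors, and Fosb is a Fos relative.

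In this order the ranges over 17 libraries overlapped between neighbours except between Zfp36 and Atf3 and between Dusp1 and Egr2. Egr1 rested on 7 to 250 counts per library in the 17 deeper libraries and on 12 in the shallow one. Its level ran from 0.143 to 6.02 CPM in the 17, a 42.0-fold range. The counting set no strand, so reads of antisense neighbours are included where exons overlap: 173 bases of Junb with Prdx2, 232 bases of Jun with Junos, 125 bases of Zfp36 with Gm44710 and 11 bases of Dusp1 with Ergic1. The exons of the other 6 genes overlapped no other gene.

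RefSeq promoter windows (GRCm38.p6, 250 bases before to 50 after the start of transcription) were found for 8 of the 10 genes. None was available for Egr1 or Ier2, and Egr2 had 5 windows, some nearly the same. A gene is counted if any of its windows holds the site, while the shares beside the counts are of windows. They were searched on both strands for the CArG box, the site of serum response factor, for the cAMP response element TGACGTCA, for the AP-1 site TGANTCA, for the EGR site GCGNGGGCG and for TATAAA. A CArG box lay in windows of 2 genes, Egr2 and Zfp36, against 1.63% of the 32851 mouse promoter windows of the same length. The EGR site lay in windows of 2 genes, Fosb and Zfp36 (5.55% of all windows), TGACGTCA in 1, Dusp1 (1.79%), TATAAA in 2, Fos and Junb (13.6%), and TGANTCA in 0 of the 8 (7.81%). Windows of 3 genes are printed. The first is a window of Egr2, the relative of Egr1 with the largest differences among the other 9 genes in Dectin-1 knockout mice. Those of Zfp36 and Dusp1 follow, whose slopes on Egr1 between mice of a group, given further on, pointed in opposite directions. Capitals mark the matches, which are a description of the letters and not evidence of binding.
Egr2 promoter, chr10:67537619-67537918, plus strand, CArG box in capitals: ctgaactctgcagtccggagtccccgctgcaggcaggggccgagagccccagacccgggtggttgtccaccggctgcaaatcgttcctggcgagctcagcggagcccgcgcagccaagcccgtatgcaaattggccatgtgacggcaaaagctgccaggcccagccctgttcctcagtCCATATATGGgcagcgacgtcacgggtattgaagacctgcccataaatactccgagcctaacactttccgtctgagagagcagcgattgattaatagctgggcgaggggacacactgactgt
Zfp36 promoter, chr7:28379179-28379478, minus strand, EGR site and then CArG box in capitals: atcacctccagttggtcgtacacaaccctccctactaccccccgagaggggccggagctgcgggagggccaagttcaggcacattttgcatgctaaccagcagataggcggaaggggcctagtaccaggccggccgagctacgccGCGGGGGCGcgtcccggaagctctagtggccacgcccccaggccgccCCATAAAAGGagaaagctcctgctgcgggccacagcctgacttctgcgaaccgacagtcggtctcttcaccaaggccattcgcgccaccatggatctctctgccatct
Dusp1 promoter, chr17:26508423-26508722, minus strand, TGACGTCA in capitals: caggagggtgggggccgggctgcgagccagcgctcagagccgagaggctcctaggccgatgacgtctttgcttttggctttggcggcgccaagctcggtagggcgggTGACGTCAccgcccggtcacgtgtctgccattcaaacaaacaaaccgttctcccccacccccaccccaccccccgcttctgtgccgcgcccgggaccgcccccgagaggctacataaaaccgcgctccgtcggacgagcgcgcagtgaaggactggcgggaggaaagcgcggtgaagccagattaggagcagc

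**Figure D1:**
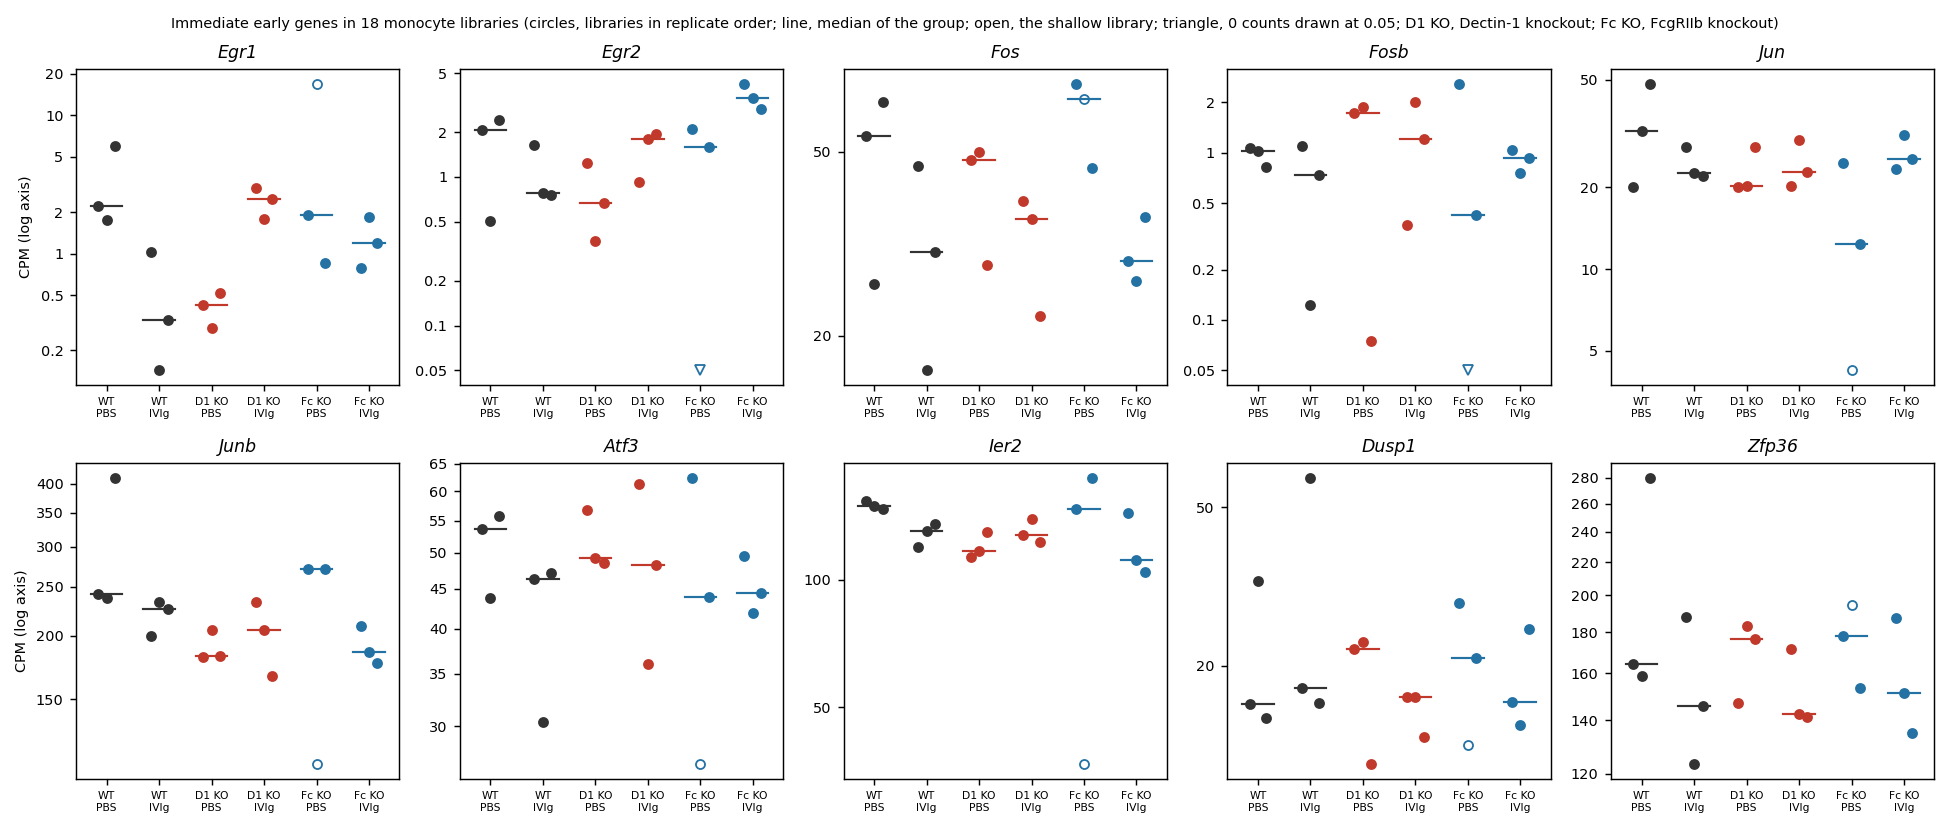
Level of each of the 10 genes in CPM (log axis) in the 18 libraries, by group of 3 mice; circles are libraries, the line is the group's median, the open symbol is the shallow library, and a triangle marks 0 counts. In the Egr1 panel the WT groups and the Dectin-1 knockout groups each separate, in opposite directions, and in the Egr2 panel the 3 FcgRIIb knockout IVIg libraries are the highest of the 17 deeper libraries.

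In WT monocytes Egr1 was lower after IVIg. It was 2.21, 1.74 and 6.02 CPM in the 3 PBS libraries and 1.03, 0.143 and 0.333 CPM in the 3 IVIg libraries. Every IVIg library lay below every PBS library, and WT PBS replicate 3 was the highest. The log2 fold change was -2.76 ± 0.67 (SE), which corresponds to 6.79-fold lower. It was -2.003 without WT PBS replicate 3, -3.80 without WT IVIg replicate 1 and -3.07 without both. These libraries are the most alike pair, and with their treatment labels exchanged the groups would overlap. Whether the labels are right was not tested.

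In Dectin-1 knockout monocytes Egr1 was higher after IVIg. It was 0.424, 0.292 and 0.521 CPM in the PBS libraries, on 11 to 14 counts each, and 2.97, 1.79 and 2.50 CPM in the IVIg libraries. The groups did not overlap, and the PBS libraries of the knockout lay at the level of the WT IVIg libraries. The log2 fold change was 2.52 ± 0.82 (SE), or 5.74-fold higher, and stayed between 2.30 and 2.72 when each library was left out in turn. The difference between the genotypes in the IVIg effect was 5.28 ± 1.06 (SE) on the log2 scale, and 5.61 without the most alike WT pair.

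The other 9 genes did not show this pair of opposite separations. Groups separated in opposite directions in WT and in Dectin-1 knockout for Egr1 alone among the 10, and for 69 of the 17040 genes tested (0.405%), 31 of them (0.182%) lower in WT and higher in the knockout. In WT, Junb and Ier2 were also lower in every IVIg library than in every PBS library, which makes 3 of the 10 genes with groups that do not overlap, against 6.33% of all genes. In Dectin-1 knockout mice Egr1 was the only one of the 10 with groups that do not overlap, against 8.8% of all genes. Since Egr1 was chosen from these differences, nothing is read from these counts.

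Junb was 242, 238 and 411 CPM in WT PBS and 200.1, 234 and 226 CPM in WT IVIg libraries. The gap between the groups was small and WT PBS replicate 3 was again the highest. Ier2 was 153, 149 and 147 CPM in WT PBS and 119.5, 131 and 135 CPM in WT IVIg libraries. Its groups were tight and close to each other. In the Dectin-1 knockout Junb was 181, 206 and 183 CPM with PBS and 233, 206 and 166 CPM with IVIg, and Ier2 was 113, 117 and 129.9 CPM with PBS and 128, 139 and 123 CPM with IVIg. Both overlapped between treatments there.

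Egr2 was the gene whose differences came closest to those of Egr1 in sign and size. It was 2.08, 0.502 and 2.41 CPM in WT PBS, 1.64, 0.778 and 0.755 CPM in WT IVIg, 1.24, 0.372 and 0.670 CPM in Dectin-1 knockout PBS and 0.928, 1.79 and 1.95 CPM in Dectin-1 knockout IVIg libraries. The groups overlapped in both genotypes. Its log2 fold change was -0.64 ± 0.54 (SE) in WT and 1.17 ± 0.62 (SE) in the knockout, and the difference between them was 1.80 ± 0.82 (SE). Leaving out WT PBS replicate 3 gave -0.23 in WT, and leaving out WT IVIg replicate 1 gave -1.08. Under the 11 alternatives other than leaving out 1 library, the WT value of Egr2 ran from -0.70 to -0.09. The difference between the genotypes ran from 1.44 to 1.91 under them.

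The AP-1 genes differed far less than Egr1. In WT the log2 fold change was -0.62 ± 0.36 (SE) for Fos, -0.61 ± 0.76 (SE) for Fosb, -0.47 ± 0.30 (SE) for Jun, -0.43 ± 0.25 (SE) for Junb and -0.31 ± 0.23 (SE) for Atf3. Without WT PBS replicate 3 the WT values shrank to -0.35 for Fos and -0.12 for both Jun and Junb. Without WT IVIg replicate 1 they grew to -1.03 for Fos and -1.21 for Fosb. In the knockout Fos was -0.40 ± 0.36 (SE), so it had the same sign in both genotypes, and Atf3 was -0.10 ± 0.24 (SE). Fosb, Jun and Junb lay between 0.07 and 0.11 in the knockout, each well within its SE, and each turned negative when 1 of the knockout libraries was left out. Atf3 turned to 0.08 without Dectin-1 knockout IVIg replicate 2, and Fosb turned negative with DESeq2 and with the legacy fit of edgeR.

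The 2 feedback genes differed from each other. Zfp36, 164, 159 and 280.1 CPM in WT PBS and 188, 123 and 146 CPM in WT IVIg libraries, had log2 fold changes of -0.40 ± 0.23 (SE) in WT and -0.16 ± 0.23 (SE) in the knockout. Without WT PBS replicate 3 its WT value was -0.08, and the difference between the genotypes went from 0.24 to -0.07. Dusp1 was 16.1, 32.6 and 14.8 CPM in WT PBS and 17.6, 59.3 and 16.2 CPM in WT IVIg libraries. WT IVIg replicate 2, the library with the least Egr1, held the most Dusp1 of all 18. Dusp1 had the opposite sign to Egr1 in both genotypes, 0.55 ± 0.42 (SE) in WT and -0.29 ± 0.44 (SE) in the knockout, but the WT value became -0.33 without WT IVIg replicate 2 and -0.05 with limma voom.

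Over the 10 genes the median log2 fold change of IVIg was -0.45 in WT (9 lower, 1 higher), where the median of all genes tested was 0.01. It was -0.23 without WT PBS replicate 3 and -0.27 with limma voom. In Dectin-1 knockout mice the median was 0.08 (6 higher, 4 lower) beside 0.02 for all genes, and it turned to -0.03 without Dectin-1 knockout PBS replicate 3. Without Egr1 the medians were -0.43 and 0.07. After Benjamini-Hochberg adjustment over all genes, edgeR's quasi-likelihood test called 0 of the 9 genes other than Egr1 in either genotype and 0 for the difference between them, where the calls over all genes were 0.00587%, 0% and 0%. Of the 9, 0, 0 and 1 (Egr2) had an unadjusted p under 0.05, beside 2.51%, 3.27% and 3.74% of all genes. DESeq2 also called 0 of the 9, beside 0.00588%, 0.0118% and 0.00588% of all genes. So did limma voom, beside 0% of all genes in each. The genes were chosen with these contrasts known, so nothing is read from these counts.

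**Figure D2:**
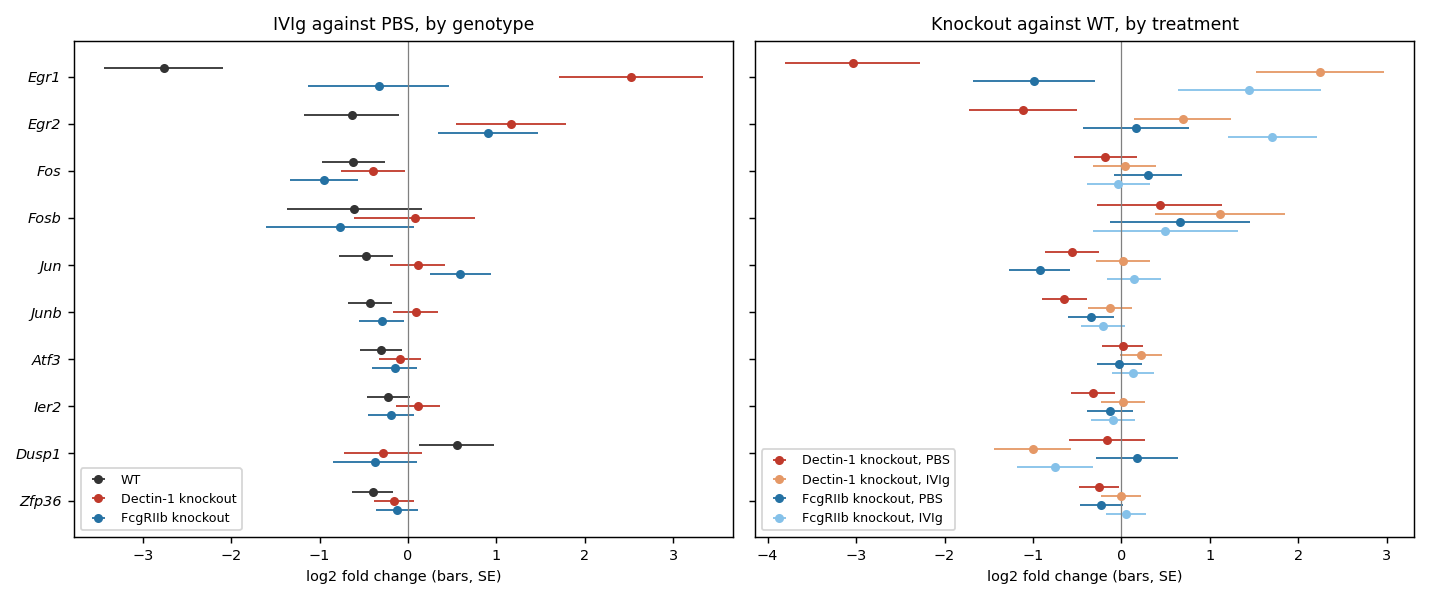
Log2 fold change of each gene (x axis, bars are SE) for IVIg against PBS in the 3 genotypes (left) and for each knockout against WT under each treatment (right). Egr1 lies at -2.76 in WT and 2.52 in Dectin-1 knockout mice, while the other 9 genes lie between -0.64 and 0.55 in WT.

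Some markers of other cell types were higher with IVIg in Dectin-1 knockout mice, where Egr1 was higher too. The 6 neutrophil markers (Ly6g, S100a8, S100a9, Mpo, Ngp and Camp) summed to 11.8 to 36.2 CPM in Dectin-1 knockout PBS and 46.5 to 1035 CPM in Dectin-1 knockout IVIg libraries, and all 6 were higher with IVIg. Within the latter group the neutrophil sums were 429, 1035 and 46.5 CPM in libraries with 2.97, 1.79 and 2.50 CPM of Egr1. The 4 B cell markers, all higher with IVIg in Dectin-1 knockout mice (median log2 fold change 1.61), summed to 7.51 to 16.03 CPM with PBS and 9.46 to 53.5 CPM with IVIg. The B cell sums overlapped between treatments in the knockout, and in WT both lists did. The WT neutrophil sums were 2.72 to 34.6 CPM with PBS and 3.80 to 43.2 CPM with IVIg. The WT B cell sums were 4.21 to 22.5 CPM with PBS and 4.71 to 12.6 CPM with IVIg. The 4 T cell markers (Cd3e, Cd3d, Cd3g and Thy1) summed to 3.34 to 5.61 CPM in WT PBS, 1.62 to 3.38 in WT IVIg, 1.46 to 2.67 in Dectin-1 knockout PBS and 1.68 to 7.46 CPM in Dectin-1 knockout IVIg libraries, so these groups overlapped. All 4 were higher with IVIg in Dectin-1 knockout mice (median log2 fold change 0.93) and lower in WT (median -0.99). Also higher in that knockout were 4 of 4 NK cell and 4 of 4 dendritic cell markers. So were 3 of 3 erythroid and 3 of 4 plasma cell markers tested. Lower were 7 of 9 monocyte markers, 3 of 4 red pulp macrophage markers and the 1 platelet marker tested. In FcgRIIb knockout mice 6 of 6 neutrophil markers were also higher with IVIg (median log2 fold change 1.45). Their sums overlapped between treatments. Egr1 was not higher there (log2 fold change -0.33 ± 0.80 (SE)). Higher there too were 4 of 4 NK cell, 4 of 4 dendritic cell and 3 of 3 erythroid markers tested. The 4 B cell markers were all lower, and 2 T cell markers were higher and 2 lower. Ly6g had 0 counts in 8 of the 18 libraries and Cd3e in 4. The part of these markers in the Egr1 result was not tested, and in bulk RNA fewer cells of a type and less RNA per cell cannot be told apart.

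Libraries also differed in how their counts leaned towards long or short genes. The Spearman correlation of each library's deviation with gene length, over 5049 abundant genes, ran from 0.261 to 0.533 in WT PBS libraries and was 0.582, -0.288 and -0.340 in the 3 WT IVIg libraries. In Dectin-1 knockout libraries it was 0.0437, 0.261 and -0.335 with PBS and -0.500, 0.462 and 0.481 with IVIg. After removal of this trend Egr1 differed by -2.77 in WT and 2.53 in Dectin-1 knockout mice on the log2 scale. The trend was fitted on genes with a mean log2 CPM of at least 5, a level far above Egr1. Whether it describes genes as low as Egr1 was not tested.

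Compared with WT, Dectin-1 knockout monocytes had less Egr1 with PBS and more with IVIg. The log2 fold change of Egr1, which follows from the 4 groups already described, was -3.04 ± 0.76 (SE) with PBS and 2.25 ± 0.73 (SE) with IVIg. Without WT PBS replicate 3 the PBS value was -2.28, and without WT IVIg replicate 1 the IVIg value was 3.28. With PBS, Junb and Ier2 were likewise lower in every knockout library than in every WT library, so that 3 of the 10 genes did not overlap against 16.3% of all genes. Junb had a log2 fold change of -0.65 ± 0.25 (SE), with an adjusted p of 0.909 in edgeR's quasi-likelihood test, and -0.34 without WT PBS replicate 3. With IVIg no gene but Egr1 separated (6.22% of all genes did), and Dusp1 had a log2 fold change of -1.004 ± 0.44 (SE) with an adjusted p of 1, which shrank to -0.12 without WT IVIg replicate 2. These comparisons reuse the 4 groups that chose Egr1, which is left out of the counts that follow. edgeR called 0 of the other 9 in both, where it called 0.0411% and 0.0528% of all genes. Of the 9, 1 had an unadjusted p under 0.05 in each, beside 4.03% and 3.46% of all genes. DESeq2 called 0 of the 9 in both, beside 0.0824% and 0.135% of all genes. The limma voom calls were also 0, beside 0.0704% and 0.0646%. The medians over the 10 were -0.29 with PBS and 0.03 with IVIg.

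FcgRIIb knockout mice gave libraries that played no part in the choice of Egr1. There Egr1 was 1.91, 16.9 and 0.849 CPM with PBS and 0.789, 1.85 and 1.19 CPM with IVIg. The value of 16.9 rests on the 12 counts of the shallow library, and the groups overlapped with and without it. The log2 fold change was -0.33 ± 0.80 (SE) and -0.08 ± 0.74 (SE) without the shallow library, each with an adjusted p of 1 in edgeR's test. It was -2.13 with DESeq2 (adjusted p 0.596) and -1.97 with the legacy fit of edgeR (adjusted p 0.999), so its size changes with the tool and no IVIg difference was called.

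Egr2 and Fos were the 2 genes whose FcgRIIb knockout groups did not overlap, against 7.04% of all genes. Egr2 was 2.11, 0 and 1.58 CPM with PBS and 4.24, 3.37 and 2.88 CPM with IVIg, where the 0 belongs to the shallow library and allows up to 4.24 CPM, so the separation holds for the other 5 libraries. Its log2 fold change was 0.90 ± 0.56 (SE), with an adjusted p of 1 in edgeR's test. Fos was 70.2, 64.9 and 46.1 CPM with PBS and 29.0, 26.2 and 36.1 CPM with IVIg. Its log2 fold change was -0.95 ± 0.39 (SE), -0.94 ± 0.41 (SE) without the shallow library, and its adjusted p of 1 in edgeR's test did not pass. Fos was lower with IVIg in WT and in Dectin-1 knockout mice too, by 0.62 and 0.40 on the log2 scale, with overlapping groups. Of the 10 genes edgeR called 0, as it did of all genes (0%), and 1 had an unadjusted p under 0.05, beside 3.19% of all genes. DESeq2 and limma voom called 0 of the 10, beside 0.0765% and 0% of all genes. The median over the 10 was -0.25 (2 higher, 8 lower) beside 0.01 for all genes.

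Against WT under the same treatment, the largest FcgRIIb knockout difference was that of Egr2 with IVIg. Its 3 FcgRIIb knockout IVIg libraries, at 4.24, 3.37 and 2.88 CPM, were the highest of the 17 deeper libraries, and the WT IVIg libraries reached 1.64 CPM. The log2 fold change was 1.70 ± 0.50 (SE) with an adjusted p of 0.786 in edgeR's test, and with each library left out in turn it stayed between 1.49 and 2.15. No other gene of the 10 separated there, where 10.3% of all genes did. Egr1 was higher by 1.45 ± 0.81 (SE), and by 2.48 without WT IVIg replicate 1. In the same comparison the 4 T cell markers summed to 5.39 to 12.7 CPM in FcgRIIb knockout and 1.62 to 3.38 CPM in WT libraries, and the 4 NK cell markers to 5.11 to 14.99 and 2.82 to 3.87 CPM. All 4 markers of each list were higher, as were 6 of 6 neutrophil markers and 3 of 3 erythroid markers tested. So were 3 of 4 plasma cell, 3 of 4 B cell and 3 of 4 dendritic cell markers. Of the monocyte markers 3 were higher and 6 lower, of the red pulp macrophage markers 2 and 2, and the 1 platelet marker tested was lower. The part of these markers in the Egr2 difference was not tested.

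With PBS, 0 of the 10 genes separated between FcgRIIb knockout and WT (11.6% of all genes did). Jun was 24.6, 4.24 and 12.4 CPM in the knockout and 20.2, 32.3 and 48.3 CPM in WT, a log2 fold change of -0.92 ± 0.34 (SE), and -0.86 ± 0.34 (SE) without the shallow library; the adjusted p values in edgeR's test were 0.503 and 0.482. It was -0.57 without WT PBS replicate 3. Egr1 differed by -0.99 ± 0.69 (SE), but by -0.23 without WT PBS replicate 3, 0.73 with DESeq2 and 0.59 with the legacy fit, so its direction changes with the tool. The FcgRIIb knockout minus WT difference in the IVIg effect was 2.43 ± 1.06 (SE) for Egr1, but 0.62 with DESeq2 and 0.75 with the legacy fit. That difference was 1.67 without WT PBS replicate 3 and 3.48 without WT IVIg replicate 1. For Jun it was 1.07 ± 0.46 (SE) on the log2 scale, with an adjusted p of 1 in edgeR's test, and 0.71 without WT PBS replicate 3. These 3 comparisons use WT libraries that chose Egr1, so the counts leave it out. edgeR called 0 of the other 9, where it called 0.0117% of all genes with IVIg and 0% in the other two. Of the 9, 1 had an unadjusted p under 0.05 with IVIg, 1 with PBS and 1 for the difference, beside 5.45%, 9.64% and 2.86% of all genes. DESeq2 called 0 of the 9 in each, beside 0.0177%, 1.05% and 0.00588% of all genes in the same order. The limma voom calls were also 0 of the 9, beside 0.00587%, 0% and 0%.

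Whether the genes moved with Egr1 from mouse to mouse was asked inside the groups, which the choice of Egr1 did not use. For each gene the slope of its log2 level on the deviation of Egr1 from its group mean was fitted across the 18 libraries in 1 model with the 6 groups. Egr2 had the steepest positive slope, 0.37 ± 0.23 (SE) log2 units per log2 unit of Egr1, followed by Fos at 0.28 ± 0.12 (SE), Fosb at 0.21 ± 0.35 (SE), Jun at 0.20 ± 0.12 (SE), Zfp36 at 0.16 ± 0.07 (SE) and Atf3 at 0.08 ± 0.09 (SE). The other 3 genes had negative slopes: Junb at -0.10 ± 0.09 (SE), Ier2 at -0.23 ± 0.08 (SE) and Dusp1 at -0.49 ± 0.15 (SE). The sign of a positive slope depended on the measure. The Pearson r of log2 CPM deviations within groups over the 18 libraries was negative for Egr2 (-0.50), Fosb (-0.39), Jun (-0.35) and Atf3 (-0.21). It was positive for Fos (0.46) and Zfp36 (0.58). Without the shallow library r was 0.50 for Egr2, 0.16 for Fosb, 0.59 for Jun and 0.60 for Atf3.

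Of these 9 slopes edgeR's test called 0 after adjustment over all genes, against 6.44% of all genes; 4 of the 9 had an unadjusted p under 0.05, as did 23.8% of all genes. Dusp1 came nearest with an adjusted p of 0.0552, followed by Ier2 at 0.0801. DESeq2 called 3 of the 9 (Ier2, Dusp1 and Zfp36) and limma voom called 3 (Fos, Dusp1 and Zfp36), where they called 15.6% and 15.5% of all genes. Dusp1 passed in edgeR's test when Dectin-1 knockout IVIg replicate 1, FcgRIIb knockout PBS replicate 1 or FcgRIIb knockout PBS replicate 3 was left out, with adjusted p values of 0.0412, 0.0321 and 0.0454. Its slope shrank to -0.23, with an adjusted p of 0.421, without WT IVIg replicate 2, the library high in Dusp1 and low in Egr1. The sign of the Dusp1 slope was negative in all 28 alternatives.

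The shallow library had the largest upward deviation of Egr1, on 12 counts, and weighed on several slopes. Without it, Fos was 0.41 ± 0.14 (SE), Jun 0.30 ± 0.11 (SE), Zfp36 0.24 ± 0.08 (SE) and Atf3 0.21 ± 0.09 (SE), Egr2 was 0.43 ± 0.23 (SE) and Fosb 0.25 ± 0.36 (SE). Junb turned to 0.07 ± 0.09 (SE), Ier2 came to -0.08 ± 0.07 (SE), and Dusp1 stayed at -0.52 ± 0.16 (SE). edgeR again called 0 of the 9, against 8.66% of all genes, with 5 at an unadjusted p under 0.05, beside 25.5% of all genes; the smallest adjusted p was 0.0571 for Dusp1. Thus 7 slopes were positive and 2 negative in the 17 libraries, with a median of 0.24 beside -0.01 over all genes, of which 48.3% had positive slopes. With all 18 libraries 6 were positive and 3 negative, with a median of 0.16, beside 48.9% of all genes positive. The 9 slopes share the same Egr1 values, so they are not 9 separate observations.

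**Figure D3:**
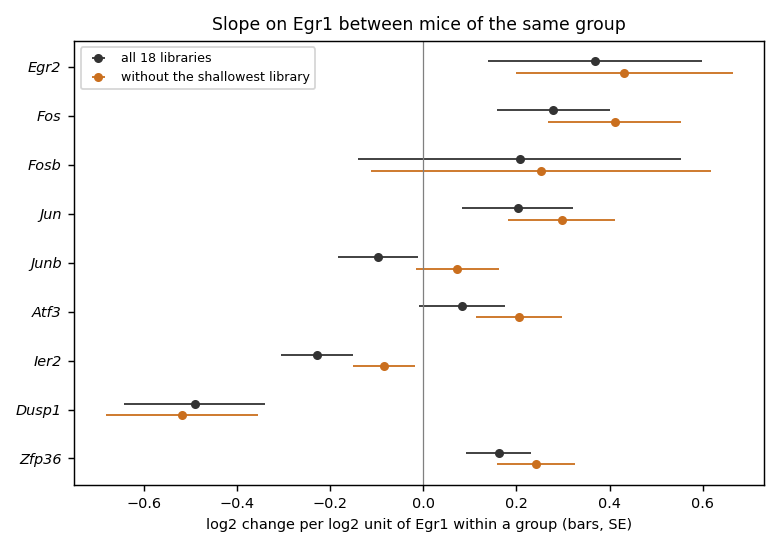
Slope of each gene on Egr1 between mice of the same group (log2 change per log2 unit of Egr1, x axis; bars are SE), with all 18 libraries and without the shallow one. Dusp1 lies furthest to the negative side, at -0.49 and -0.52, and Junb changes sign.

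Single libraries carried the high values of several genes at once. WT PBS replicate 3 held the highest level of 3 of the 10 genes among the 18 libraries, Jun at 48.3, Junb at 411 and Zfp36 at 280.1 CPM. FcgRIIb knockout PBS replicate 1 held the highest level of another 3, Fos at 70.2, Fosb at 2.59 (among the 17 deeper libraries) and Atf3 at 62.4 CPM, and 9 of the 10 genes lay above the mean of its group there, with the shallow library in the same group. Egr1 was 1.91 CPM in that library. In WT IVIg replicate 2, Egr1, Fos, Fosb, Atf3 and Zfp36 were each the lowest of the 6 WT libraries.

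Likeness to Egr1 over the 18 libraries was ranked across 9092 genes with a mean of at least 5 CPM. The 5 whose log2 level was most like that of Egr1 were Irf2bp2 (Pearson r = 0.83), Zfhx3, Trerf1, Prr3 and Gmeb1. Egr2 and Fosb lay below 5 CPM and were not ranked. Nor were genes with no symbol or a provisional one, such as Gm-numbered and Rik genes. Without the shallow library the 5 were Zfp668 (r = 0.81), Irf2bp2, Noc2l, Foxp4 and Fam207a. By deviations within the groups the 5 were Vps54 (r = 0.94), Nxf1, Map3k20, Tcf4 and Nlrc4 over 18 libraries, and Sipa1 (r = 0.93), Leng8, Srrm1, Rufy1 and Pnisr over 17. These are descriptions over points that share library depth, and the names depend on the shallow library: only Irf2bp2 by level was in both lists.

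Other genes of the same response gave no calls. Of 37 further immediate early and primary response genes 36 were tested, and edgeR called 0 in each of the 9 comparisons. Over all genes it called 0% to 0.0528% in these comparisons, so nothing is read from the 0. Their median log2 fold change of IVIg was -0.11 in WT (13 higher, 23 lower), 0.07 in Dectin-1 knockout (20 higher, 16 lower) and 0.09 in FcgRIIb knockout mice (21 higher, 15 lower). At an unadjusted p under 0.05 the counts were 5, 4 and 1 of the 36, beside 2.51%, 3.27% and 3.19% of all genes. Egr3, a relative of Egr1, had the same pair of signs as Egr1 at a very low level. It was 0.4995 ± 0.547 CPM with PBS and 0.151 ± 0.181 CPM with IVIg in WT (SD, n = 3), and 0.115 ± 0.101 CPM with PBS and 1.76 ± 1.44 CPM with IVIg in Dectin-1 knockout mice (SD, n = 3). Its log2 fold changes were -1.78 ± 1.14 (SE) and 3.59 ± 1.12 (SE), each with an adjusted p of 1 in edgeR's test.

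Nab1 and Nab2 encode co-repressors of EGR factors, and neither was called. Nab1 differed by 0.03 ± 0.16 (SE) in WT and by -0.19 ± 0.16 (SE) in Dectin-1 knockout mice on the log2 scale, and Nab2 by -0.21 ± 0.27 (SE) and 0.09 ± 0.28 (SE). In FcgRIIb knockout mice Nab1 differed by 0.35 ± 0.17 (SE), with an adjusted p of 1 in edgeR's test. Of 20 upstream kinases and transcription factors, all tested, 0 were called in the 9 comparisons, beside 0% to 0.0528% of all genes. Their median log2 fold changes of IVIg were -0.08 in WT, 0.05 in Dectin-1 knockout and 0.01 in FcgRIIb knockout mice. The farthest in WT was Elk4, a ternary complex factor, at -0.46 ± 0.40 (SE). Of 15 NF-kB primary response genes 14 were tested and 0 called, beside the same shares of all genes, with medians of -0.14, 0.13 and 0.25.

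Heat shock genes, included because they also respond to handling, were 11 tested of 12. In the 9 comparisons 0 were called, beside 0% to 0.0528% of all genes. With IVIg, 11 of 11 were higher in Dectin-1 knockout mice (median log2 fold change 0.49) and 11 of 11 were lower in FcgRIIb knockout mice (median -0.35), while in WT 5 were higher and 6 lower (median -0.00424). Of all genes 53.0%, 51.1% and 51.1% were higher in these 3 genotypes. At an unadjusted p under 0.05 in edgeR's test the counts were 1, 0 and 0 of the 11, beside 3.27%, 3.19% and 2.51% of all genes. Heat shock genes respond together, so they are not 11 separate observations. Hsph1, a large chaperone of the Hsp110 family, was 32.6 ± 17.7 CPM with PBS and 101 ± 32.3 CPM with IVIg in Dectin-1 knockout mice (SD, n = 3), a log2 fold change of 1.62 ± 0.56 (SE) with an adjusted p of 1 in edgeR's test. The part of handling in the immediate early values was not tested.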

How the data were processed

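Monocyte RNA was made into libraries with a strand-marking poly(A) kit, as the labels' protocols state. The authors deposited raw counts per gene, produced by featureCounts 2.0.2 with Ensembl release 104 annotation of GRCm39, per the file headers. The recorded command has no strand option and lets reads that span several genes count for each. STAR is named in the submitters' processing notes. The table also held 18 columns that match no sample (left out) and 1492 genes with no symbol. Groups follow the genotype and treatment labels, and replicate numbers only follow accession order.

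After filterByExpr (17040 genes) and TMM scaling, 1 model of the 6 groups with 12 residual degrees of freedom was fitted by edgeR 4.0.16 under R 4.3.3 (quasi-likelihood, non-legacy), and called genes had a Benjamini-Hochberg adjusted p below 0.05 over all genes. CPM uses TMM-scaled totals, and a prior count of 2 was used for log2 CPM. For the slopes on Egr1, Egr1 was left out of the genes tested. The tests were tried on simulated data. For the slopes, Egr1 was simulated far above its level in the data, so the error from its low counts was not covered.

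All 10 genes are given in every comparison. Of other lists, called genes are named, or otherwise up to 2 with the largest fold change, beside Clec7a and Fcgr2b, and Hsph1 is named for its separation. The genes and lists were chosen with earlier results of these data known. Alternatives were DESeq2 1.42.0, limma 3.58.1 voom with quality weights, the legacy fit, RLE size factors, no and a stricter low-count filter, removal of the length trend (spline of 4 degrees of freedom), removal of immunoglobulin, haemoglobin and mitochondrial genes, own groups only, a prior count of 0.5, and each library left out. Removal of the most alike WT pair, and of the length trend together with the shallow library, were added after the data were seen. Floors of 3 counts cover counting error only.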

Additional observations from a re-analysis of the deposited data

Results flagged for a closer look

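The IVIg effect on Egr1 differed between Dectin-1 knockout and WT mice by 5.28 on the log2 scale, because every WT IVIg library lay below every WT PBS library and every Dectin-1 knockout IVIg library lay above every Dectin-1 knockout PBS library. Egr1 was chosen for this pattern, so the difference is given as a description, with no p. With each library left out in turn it stayed between 4.52 and 6.32.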

How the results depend on the processing

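Counts of called genes among the 9 other than Egr1 were 0 in the 9 comparisons under every alternative run. For the slopes on Egr1 the count moved from 0 (6.44% of all genes called) to 3 with DESeq2 (15.6%), 3 with limma voom (15.5%), 1 with the legacy fit (Ier2; 7.61%), 1 with a prior count of 0.5 (Dusp1; 6.39%) and 3 with the length trend removed and without the shallow library (Fos, Atf3 and Zfp36; 8.32%), and lay between 0 and 1 with each library left out; the cause was not tested. The Junb slope reversed to 0.11 with limma voom, 0.20 with the length trend removed and without the shallow library, and 0.0729 without FcgRIIb knockout PBS replicate 2, within a range of -0.209 to 0.0729 with each library left out. The Ier2 slope reversed to 0.11 with the length trend removed and without the shallow library, the Atf3 slope to -0.0195 with the legacy fit, and the Fosb slope to -0.0501 and -0.0677 without WT IVIg replicate 1 or 2, within a range of -0.0677 to 0.358. Egr1 in FcgRIIb knockout against WT with PBS reversed from -0.99 to 0.73 with DESeq2 and 0.59 with the legacy fit. Egr1 kept its direction in WT and in Dectin-1 knockout mice under each alternative run. The low counts of Egr1, Egr2 and Fosb limit the precision of their values. No paired analysis was possible because the labels give no replicate numbers.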
